A study of Mus musculus with 12 samples.

Results

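The Notch modulators *Lfng*, *Mfng*, *Dtx1*, *Dtx3*, *Dtx4*, *Numbl* and *Maml2* are 7 of the 770 genes of a murine cancer pathway panel for the nCounter platform, on which transcripts are hybridised to color-coded probes and counted directly. They were taken by gene symbol. Tissue of 12 mice was measured, with 1 eye, lesion or tumor per animal. The 4 control eyes were *Ctnnb1(ex3)Fl/+SmoM2Fl/+* and were collected at embryonic day E18.5, with both floxed alleles present but no Cre driver. The 5 *RBS* lesions were *Rax-creERT2::Ctnnb1(ex3)Fl/+SmoM2Fl/+* eyes of the same age after tamoxifen at E8.5, so that cells with *Rax* promoter activity, which are precursors of the eye, received stabilised beta-catenin and an active form of Smoothened together. The 3 Shh-medulloblastomas (Shh-MBs) were hindbrain tumors of *hGFAP-cre::SmoM2Fl/+* mice at 14 days of age, in which a Cre driven by the human *GFAP* promoter activates Smoothened alone. Both groups of eyes shared age, tissue and floxed alleles, whereas the tumors differed from them in tissue, age and alleles at once, and these factors cannot be told apart. For the control eyes of this RNA measurement, the sources used here do not state whether the dams were given tamoxifen.

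Notch signaling passes between touching cells, when a Delta or Jagged ligand on one cell makes the receptor on the other release its intracellular domain, which enters the nucleus and activates genes such as those of the Hes family together with RBPJ. Fringe enzymes add sugars to the receptor in the Golgi and thereby shift its response between Delta and Jagged ligands, Deltex proteins are ubiquitin ligases of which several bind the intracellular domain, Numb-like is an adaptor of the Numb family that restrains Notch, and Mastermind-like proteins are coactivators in the nuclear complex. In the developing retina and cerebellum the pathway is known for keeping progenitor cells from early differentiation.

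Values are the normalized signal that was deposited, in arbitrary units after background subtraction. Counts above background ranged from 335349 to 716961 per sample. *Mfng* rested on 20 to 89 such counts, whereas each of the other members rested on 96 to 1953, so counting noise weighs most on *Mfng*. Log2 differences are differences between group means of log2(signal + 1), and the threshold was an adjusted *p* under 0.05 in limma, two-sided and adjusted over all 770 genes. All samples are bulk tissue, in which fewer cells of a type and less RNA per cell cannot be told apart. Of the targeted genes, *Ctnnb1* was higher in the lesions than in control eyes (log2 difference 0.48, adjusted *p* = 0.00063, limma) and *Smo* did not pass (0.18, adjusted *p* = 0.164), and as the positions of the probes are not given here, neither value reads out recombination. None of 10 marker genes of retina and eye field was on the panel, so the identity of the eye tissue could not be checked with them. Shh-MBs are known to arise from granule neuron precursors. Of 9 genes written down for these cells, only *Zic2*, *Ccnd2*, *Mycn* and *Gli1* were on the panel. Their signal summed to between 7140 and 8650 in the Shh-MBs against 1897 to 2109 in lesions and 2279 to 2556 in control eyes. In lesions 2 of the 4 were lower than in control eyes, as were 18.2% of all genes. With so few of the genes on the panel, this sum does not establish the identity of the tumor tissue.

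*Lfng*, *Dtx3*, *Numbl* and *Maml2* were above control eyes in the *RBS* lesions, by 1.63-fold to 1.76-fold, while *Mfng*, *Dtx1* and *Dtx4* did not pass the test. In the Shh-MBs the member that stood out was *Dtx4*, with a signal of 106 ± 13.2 (SD, *n* = 3) against 986 ± 112 (SD, *n* = 4) in control eyes and 913 ± 118 (SD, *n* = 5) in lesions. Fringe and Deltex genes each included members past the threshold between lesions and control eyes and members that did not pass it. As 51.2% of all 770 genes passed in this comparison, such a mix does not set these families apart. For the Fringe pair, the difference of *Lfng* and *Mfng* within a sample missed the threshold (exact permutation, adjusted *p* = 0.0529). These 4 rises in *RBS* lesions and the difference of *Dtx4* kept their direction and passed the threshold under each of the 4 other ways of scaling the samples that were tried.

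**Figure D1:**
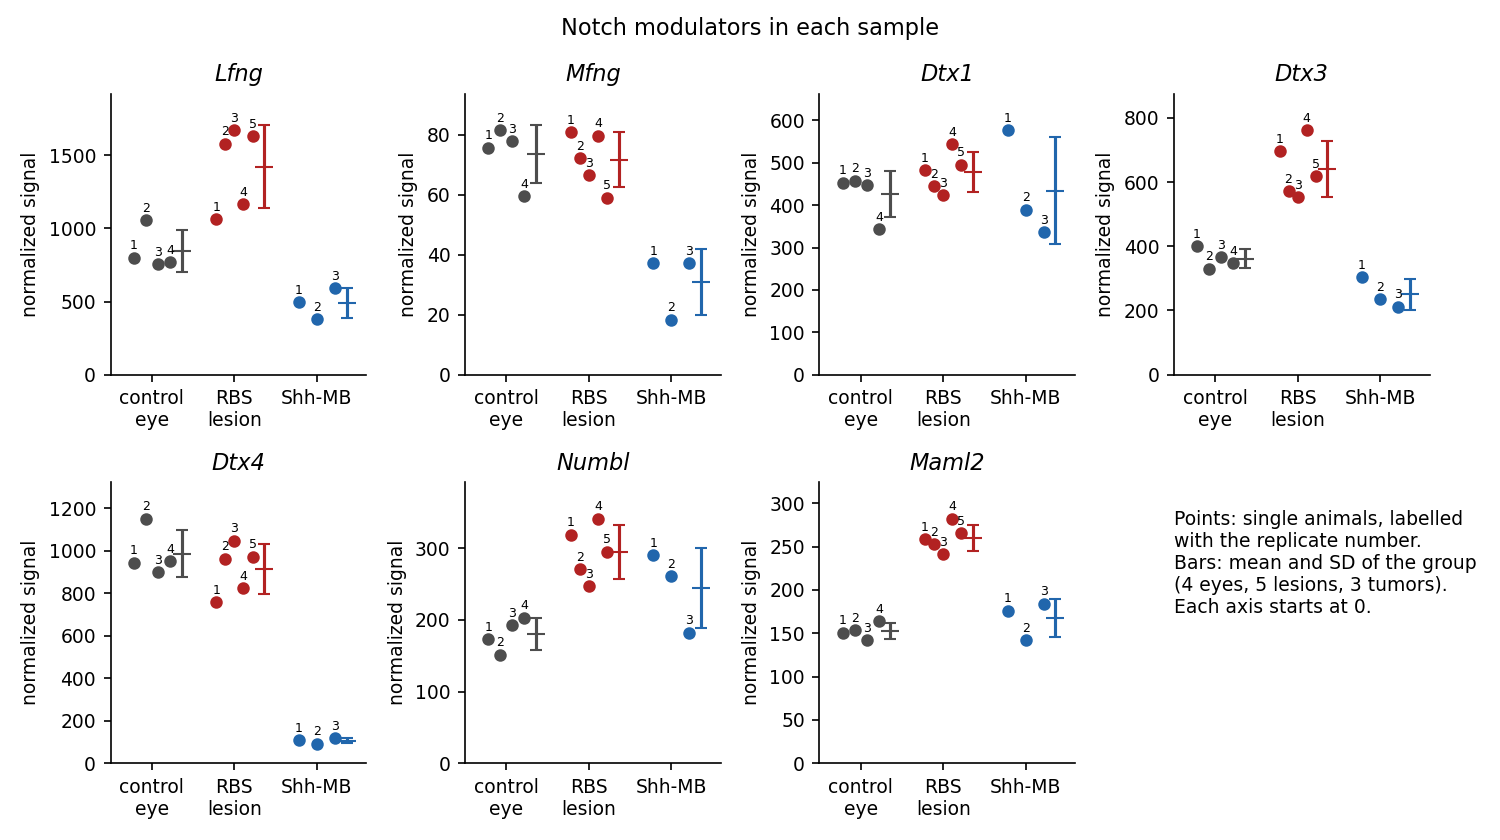
Normalized signal (arbitrary units, linear axes from 0) of the 7 Notch modulators in control eyes (n = 4), *RBS* lesions (n = 5) and Shh-MBs (n = 3). Points are single animals with their replicate number and bars are mean ± SD. The *RBS* points lie above all control points for *Lfng*, *Dtx3*, *Numbl* and *Maml2*, and the Shh-MB points of *Dtx4* lie between 92.3 and 119, far below all eyes.

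Of the Fringe genes, *Lfng* encodes Lunatic fringe, known from the segmentation of the body axis. Its signal was 799.6, 1056, 756 and 769.8 in control eyes 1 to 4. In *RBS* lesions 1 to 5 it was 1064, 1581, 1672.5, 1168 and 1629, and in Shh-MBs 1 to 3 it was 494, 382 and 590.2. Every lesion was above every control eye, although *RBS* 1 lay only just above control eye 2, and every tumor was below every eye. The *RBS* mean was 1423 ± 284.5 (SD, *n* = 5) and the control mean 845 ± 141 (SD, *n* = 4), which differed by 0.74 on the log2 scale (adjusted *p* = 0.00637 in limma, standard error 0.175). Against the Shh-MBs, with 489 ± 104 (SD, *n* = 3), the log2 difference of *RBS* lesions was 1.54 (standard error 0.212, adjusted *p* = 0.000352, limma), and it ranged from 0.69 to 1.49 under the other scalings. The order from *RBS* lesions over control eyes to Shh-MBs thus passed at each step, but its lower step was less firm. Shh-MBs minus control eyes gave -0.80 (adjusted *p* = 0.016, limma), which was -0.13 (adjusted *p* = 0.61, limma) with each sample centred on its median, -0.49 (adjusted *p* = 0.108, limma) with the samples scaled to the total signal less the top 3 genes, and -0.63 (adjusted *p* = 0.05, limma) without Shh-MB 2. With quantile normalization it was -0.53 and still passed (adjusted *p* = 0.0375, limma).

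*Mfng*, which encodes the related Manic fringe, had a signal of 75.6, 81.5, 77.9 and 59.5 in control eyes 1 to 4. In *RBS* lesions 1 to 5 it was 80.9, 72.2, 66.5, 79.6 and 59.0, and in Shh-MBs 1 to 3 it was 37.2, 18.3 and 37.1. Both groups of eyes overlapped over nearly their whole range, and every tumor lay below every eye. The log2 difference between *RBS* lesions and control eyes was -0.04 with a 95% confidence interval from -0.34 to 0.26 (adjusted *p* = 0.828, limma), and its sign turned without *RBS* 5 (0.028) or control eye 2 (0.013). Against Shh-MBs it was 1.25 (standard error 0.243, adjusted *p* = 0.0023, limma) as deposited, 0.40 (adjusted *p* = 0.124) with median centring and 0.04 (adjusted *p* = 0.885) with quantile normalization. Shh-MBs minus control eyes gave -1.28 (adjusted *p* = 0.00889, limma), and the same scalings gave -0.62 (adjusted *p* = 0.0672) and -0.27 (adjusted *p* = 0.39). Between the groups of eyes *Lfng* thus passed and *Mfng* did not, while their difference within a sample, tested directly, missed the threshold (0.78, exact permutation, adjusted *p* = 0.0529).

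Among the Deltex genes, *Dtx1* and *Dtx4* encode proteins with WWE domains, through which Deltex binds the Notch intracellular domain, and *Dtx3* encodes a shorter relative without them. *Dtx3* had a signal of 401, 329.8, 367 and 348 in control eyes 1 to 4. In *RBS* lesions 1 to 5 it was 696, 572, 554, 762 and 618, and in Shh-MBs 1 to 3 it was 304, 236 and 212. No value of one group reached into the range of another. With 640.5 ± 87.3 (SD, *n* = 5) against 361 ± 30.3 (SD, *n* = 4), *Dtx3* was 1.76-fold above control eyes in *RBS* lesions (log2 difference 0.82, standard error 0.118, adjusted *p* = 0.000426, limma), which was the largest difference of the 7 members in this comparison as deposited. That rank rests on small gaps, since *Lfng* was larger without *RBS* 1, *RBS* 4 or control eye 2 (without the last, 0.85 against 0.78), and *Maml2* was larger after quantile normalization (0.61 against 0.60) and by less than the rounding without control eye 4. *Dtx3* was also higher in *RBS* lesions than in Shh-MBs by 1.36 (standard error 0.161, adjusted *p* = 0.000157, limma), and 0.51 to 1.31 under the other scalings. Shh-MBs minus control eyes gave -0.54 (adjusted *p* = 0.0272, limma), which turned to 0.13 (adjusted *p* = 0.431) with median centring and was -0.19 (adjusted *p* = 0.284) with quantile normalization and -0.23 (adjusted *p* = 0.235) with the total signal less the top 3 genes. Without any 1 of Shh-MB 2, Shh-MB 3 and control eyes 1, 3 and 4 the adjusted *p* was between 0.0527 and 0.0914.

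*Dtx4* was the member with the widest separation between eyes and tumors. Its signal was 944, 1151, 899 and 951 in control eyes 1 to 4 and 759, 963, 1048, 823 and 973 in *RBS* lesions 1 to 5. In Shh-MBs 1 to 3 it was 108, 92.3 and 119, so even the lowest eye was far above the highest tumor, and both groups of eyes overlapped. The log2 difference between *RBS* lesions and Shh-MBs was 3.09 (standard error 0.143, adjusted *p* = 1.83e-06, limma), an 8.51-fold difference, and Shh-MBs minus control eyes gave -3.20 (standard error 0.136, adjusted *p* = 7.81e-06, limma). Under the other scalings these values lay between 2.24 and 3.04 and between -3.18 and -2.54. Between *RBS* lesions and control eyes it was -0.11 with a 95% confidence interval from -0.39 to 0.17 (adjusted *p* = 0.484, limma). With quantile normalization it passed the threshold as lower in *RBS* lesions (-0.32, adjusted *p* = 0.0389, limma).

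*Dtx1*, a Deltex gene known from lymphocytes, passed the threshold between no pair of groups on the deposited scale. Its signal was 453, 457.5, 448 and 344 in control eyes 1 to 4, and 483, 445, 424, 544 and 495 in *RBS* lesions 1 to 5. In Shh-MBs 1 to 3 it was 577, 389 and 336, so the tumors held both the highest and the lowest value of all 12 samples. *RBS* lesions minus control eyes gave 0.17 with a 95% confidence interval from -0.10 to 0.44 (adjusted *p* = 0.265, limma), which is the median of all genes in this comparison, and the sign turned under median centring (-0.0069) and under quantile normalization (-0.11). *RBS* lesions minus Shh-MBs gave 0.17 with an interval from -0.25 to 0.60 (adjusted *p* = 0.441, limma). This value turned to -0.67 (adjusted *p* = 0.00409) with median centring, to -0.43 (adjusted *p* = 0.0465) with quantile normalization and to -0.21 (adjusted *p* = 0.32) with the samples scaled to the total signal less the top 3 genes, and without Shh-MB 1 it was 0.40 (adjusted *p* = 0.0358). For *Dtx1* the direction against the tumors is therefore set by the scaling. Shh-MBs minus control eyes gave -0.0007 with an interval from -0.51 to 0.51 (adjusted *p* = 0.999, limma), and 0.67 (adjusted *p* = 0.0217) with median centring.

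*Numbl* encodes Numb-like, which shares with Numb the phosphotyrosine-binding domain and a role in neural progenitors. Its signal was 173, 151, 193 and 203 in control eyes 1 to 4, and 319, 270.5, 247, 341 and 295 in *RBS* lesions 1 to 5. In Shh-MBs 1 to 3 it was 290.3, 261 and 182. All lesions were above all control eyes, and the tumors spread from the control range into the lesion range. The means were 180.05 ± 22.8 (SD, *n* = 4) in control eyes and 295 ± 37.4 (SD, *n* = 5) in *RBS* lesions, which differed by 0.71 on the log2 scale (adjusted *p* = 0.00152 in limma, standard error 0.128). The tumors, at 244 ± 55.9 (SD, *n* = 3), passed against neither, with 0.29 for *RBS* lesions minus Shh-MBs (95% confidence interval from -0.13 to 0.70, adjusted *p* = 0.2, limma) and 0.42 for Shh-MBs minus control eyes (adjusted *p* = 0.129, limma). The first of these turned to -0.56 (adjusted *p* = 0.0187) with median centring, -0.30 (adjusted *p* = 0.156) with quantile normalization and -0.10 (adjusted *p* = 0.624) with the total signal less the top 3 genes. The second passed under these 3 scalings, with 1.09, 0.87 and 0.73, and also without Shh-MB 3 (0.62, adjusted *p* = 0.0281, limma).

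*Maml2* encodes a Mastermind-like coactivator and had the smallest spread between eyes of the same group. Its signal was 151, 153, 142 and 164 in control eyes 1 to 4, and 258, 253, 241, 282 and 266 in *RBS* lesions 1 to 5. In Shh-MBs 1 to 3 it was 176, 142 and 184. The lowest lesion was well above the highest control eye and the highest tumor, while tumors and control eyes overlapped. With coefficients of variation of 5.94% and 5.89%, the means of 152 ± 9.05 (SD, *n* = 4) in control eyes and 259.9 ± 15.3 (SD, *n* = 5) in *RBS* lesions gave a log2 difference of 0.77 (adjusted *p* = 8.52e-05 in limma, standard error 0.0822), the smallest adjusted *p* of the members in this comparison. *RBS* lesions minus Shh-MBs gave 0.64 (adjusted *p* = 0.00156, limma), which was -0.21 (adjusted *p* = 0.179) with median centring, 0.05 (adjusted *p* = 0.692) with quantile normalization and 0.25 (adjusted *p* = 0.0971) with the total signal less the top 3 genes. Shh-MBs minus control eyes gave 0.13 (adjusted *p* = 0.458, limma) and passed as higher under the same 3 scalings, with 0.79, 0.57 and 0.44.

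Upstream sequences are shown for *Lfng*, *Numbl* and *Maml2*, members that were higher in *RBS* lesions, because RBPJ, Gli and TCF factors are the nuclear ends of the Notch, Shh and Wnt pathways and their known motifs can be looked up there. RefSeq promoters (mouse, GRCm38.p6) of 300 bases, from 250 before to 50 after a start site, were found for 4 of the 7 members, namely *Lfng*, *Numbl*, *Dtx1* and *Maml2*, the last with 2 start sites. Printed 5′ to 3′ are the 250 bases before the start, all on the plus strand, at chr5:140607091-140607340 for *Lfng*, chr7:27258511-27258760 for *Numbl* and chr9:13662210-13662459 for the second start site of *Maml2*. Capitals mark the RBPJ core motif TGGGAA on either strand (TTCCCA where it lies on the minus strand) and the E-box CACGTG.
Lfng: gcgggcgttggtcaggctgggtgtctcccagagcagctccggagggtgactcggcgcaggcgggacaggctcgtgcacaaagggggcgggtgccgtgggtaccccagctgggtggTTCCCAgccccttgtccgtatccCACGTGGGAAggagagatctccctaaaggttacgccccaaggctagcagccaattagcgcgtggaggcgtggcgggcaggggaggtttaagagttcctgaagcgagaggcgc
Numbl: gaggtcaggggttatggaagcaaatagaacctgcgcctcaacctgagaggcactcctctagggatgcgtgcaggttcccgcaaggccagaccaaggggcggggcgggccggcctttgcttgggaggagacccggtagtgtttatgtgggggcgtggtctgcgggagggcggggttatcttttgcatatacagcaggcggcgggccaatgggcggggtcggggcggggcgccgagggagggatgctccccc
Maml2: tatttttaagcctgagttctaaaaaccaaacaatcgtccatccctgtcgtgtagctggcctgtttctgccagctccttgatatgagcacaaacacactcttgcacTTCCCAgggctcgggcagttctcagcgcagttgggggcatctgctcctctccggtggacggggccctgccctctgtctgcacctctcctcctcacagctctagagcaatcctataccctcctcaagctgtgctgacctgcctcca

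The *Lfng* window held the RBPJ core motif at 2 places, first on the minus strand at position -135 and then on the plus strand at -108, counted from the start site. The second is also a match to the longer form GTGGGAA and overlaps an E-box that starts at -112. The second *Maml2* window held the core motif once, on the minus strand at -145, whereas the first *Maml2* window and those of *Numbl* and *Dtx1* held none of the motifs searched. Of 32851 mouse promoter windows of this length, 25.6% held TGGGAA on either strand, 6.38% held GTGGGAA and 7.15% held CACGTG, so the core motif alone is common. No member window held the N-box CACAAG (15.5% of all windows), the Gli motif GACCACCCA (0.253%) or the TCF motif CTTTGAA or CTTTGAT (8.65%). These matches describe letters in a window and are not measured binding sites.

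The members were then read against the whole panel. In *RBS* lesions against control eyes 4 of the 7 members passed the threshold (57.1%), against 51.2% of all 770 genes, so the share is close to the background. All 4 were higher in *RBS* lesions, as were 33.0% of all genes, and no member was lower, as were 18.2%. The groups did not overlap for the same 4 members, and for 43.4% of all genes (27.5% with the lesions above and 15.8% with the lesions below). The median log2 difference was 0.71 over the members and 0.17 over all genes. Of all genes past the threshold, 254 were higher and 140 lower on the deposited scale, 177 and 177 with median centring, and 187 and 179 after quantile normalization.

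**Figure D2:**
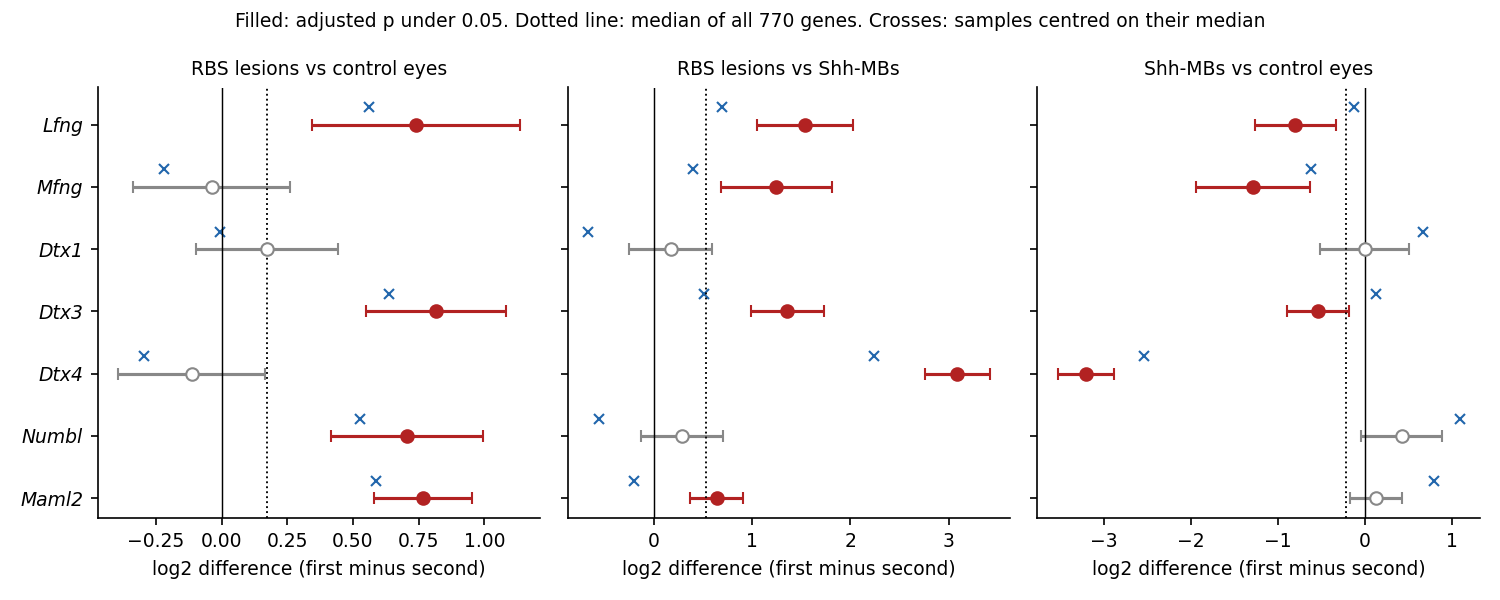
Log2 difference of each Notch modulator between *RBS* lesions and control eyes, *RBS* lesions and Shh-MBs, and Shh-MBs and control eyes, with 95% confidence intervals from limma (x axes differ in range). Filled points passed an adjusted *p* of 0.05, dotted lines mark the median of all 770 genes (0.17, 0.53 and -0.22), and crosses give the value after centring each sample on its median, which leaves *Lfng*, *Mfng*, *Dtx3* and *Dtx4* above 0 against Shh-MBs but moves *Dtx1*, *Numbl* and *Maml2* below 0.

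In *RBS* lesions against Shh-MBs 5 of 7 members passed (71.4%), against 60.8% of all genes. All 5 were higher in *RBS* lesions, a direction that 48.1% of all genes took with 12.7% in the other, and the members' median of 1.25 stood beside a median of 0.53 over all genes. The groups did not overlap for 5 members and for 59.9% of all genes (47.0% above and 12.9% below). Here the scaling decides much, since of all genes past the threshold 370 were higher and 98 lower as deposited, 181 and 319 with median centring, 204 and 234 with quantile normalization, and 271 and 164 with the total signal less the top 3 genes. Of the members, 3 then passed as higher and 2 as lower with median centring, 3 and 1 with quantile normalization, and 4 and 0 with the total signal less the top 3 genes. Median centring moved the median of all genes to -0.32. *Lfng*, *Dtx3* and *Dtx4* passed as higher in *RBS* lesions under each of these scalings.

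In Shh-MBs against control eyes 4 of 7 members passed (57.1%), against 41.0% of all genes, and all 4 were lower in the tumors, as were 31.4% of all genes, with 9.61% higher. This count rests on few tumors, as 2 members passed without Shh-MB 2, beside 250 of all genes. With a replicate block 2 members passed as well. The groups did not overlap for 4 members and for 48.2% of all genes (36.0% below and 12.2% above). The median was -0.54 over the members and -0.22 over all genes, and median centring moved the latter to 0.44 and quantile normalization to 0.17. Of all genes past the threshold, 74 were higher and 242 lower as deposited, 311 and 139 with median centring, 221 and 147 with quantile normalization, and 160 and 177 with the total signal less the top 3 genes. Of the members, 3 passed as higher in the tumors and 1 as lower with median centring, and 2 and 2 both with quantile normalization and with the total signal less the top 3 genes. *Dtx4* was the only member that passed as lower in the tumors under every scaling. Both comparisons of eyes against tumors, and both comparisons against control eyes, share samples and are not independent of each other.

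**Figure D3:**
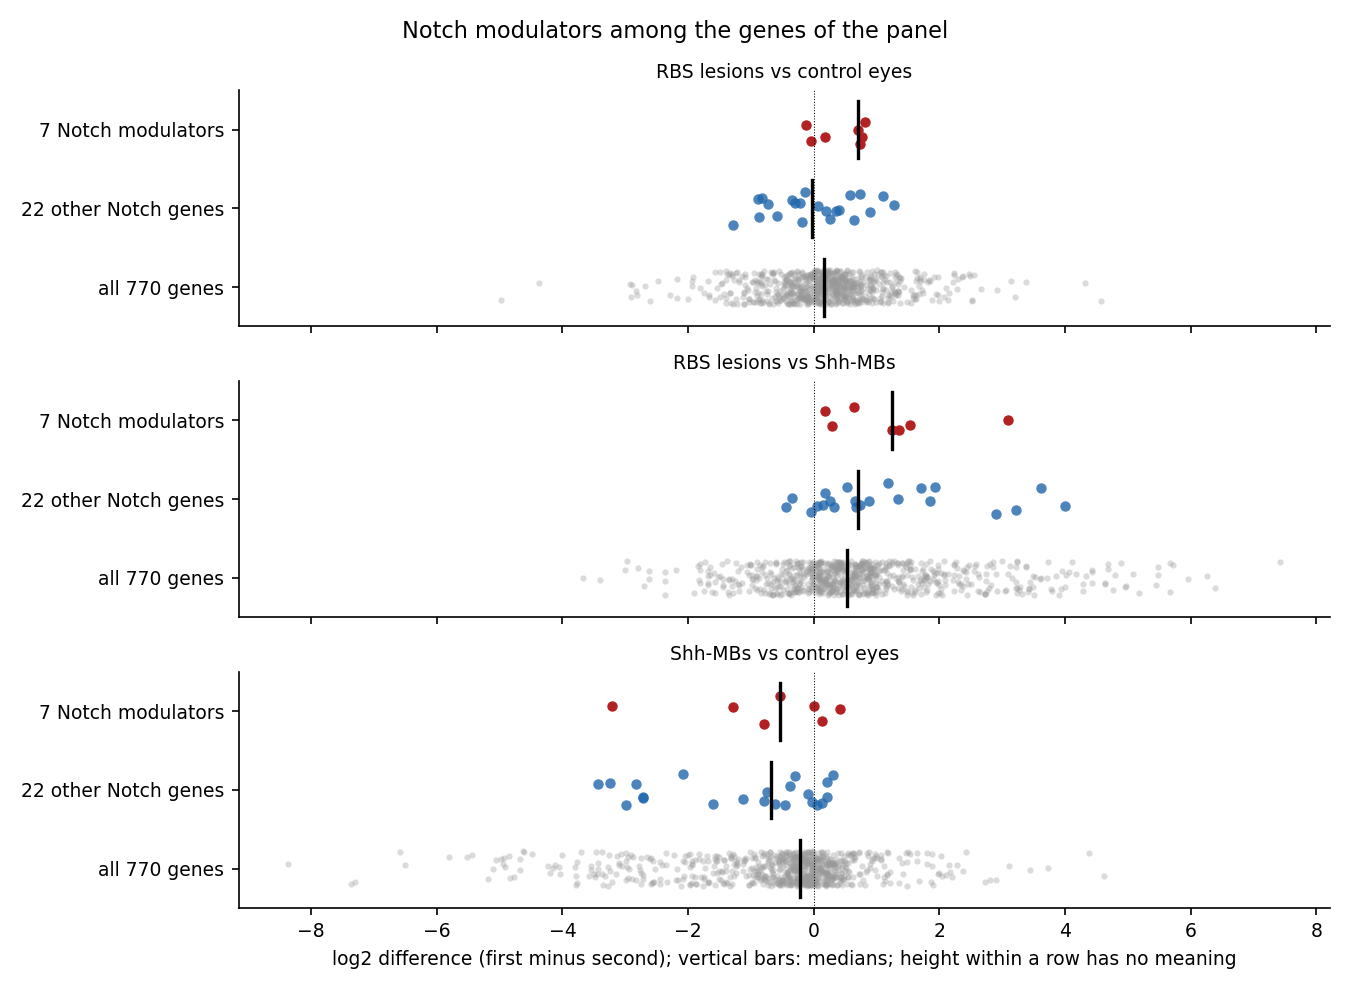
Log2 difference of the 7 Notch modulators, 22 other Notch pathway genes and all 770 genes in the 3 comparisons, with vertical bars at the medians (0.71, -0.03 and 0.17 for *RBS* lesions against control eyes). Each point is a gene, and *Dtx4* is the member farthest from 0 in both comparisons with Shh-MBs (3.09 and -3.20).

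The difference between relatives within a sample does not change when all genes of the sample are multiplied by 1 factor, apart from the pseudocount, although it can change under quantile normalization. It was compared between groups for 4 pairs of genes with exact permutation tests over samples, two-sided and adjusted over the 12 tests. It shows unequal change and not which gene moved. *Dtx3* minus *Dtx1* on the log2 scale was 0.53, 0.36, 0.38, 0.49 and 0.32 in *RBS* lesions 1 to 5 and -0.18, -0.47, -0.29 and 0.02 in control eyes 1 to 4. In Shh-MBs 1 to 3 it was -0.92, -0.72 and -0.66, so the 3 groups did not overlap. The lesions were higher than control eyes by 0.64 (exact permutation *p* = 0.00794, adjusted 0.0429) and than Shh-MBs by 1.18 (exact permutation *p* = 0.0179, adjusted 0.0429), each the smallest *p* that these sample numbers allow. Shh-MBs minus control eyes gave -0.54, which did not pass (exact permutation *p* = 0.0571, adjusted 0.0686). *Dtx3* therefore differed relative to *Dtx1* between lesions and both other groups, but without control eye 2 the adjusted *p* against control eyes was 0.0536 (exact permutation). Without any 1 tumor, no comparison with Shh-MBs had enough samples to pass.

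*Dtx3* minus *Dtx4* was likewise higher in lesions than in control eyes, with means of -0.51 ± 0.372 (SD, *n* = 5) and -1.44 ± 0.254 (SD, *n* = 4), a difference of 0.93 (exact permutation, adjusted *p* = 0.0429, and 0.0714 without control eye 2). In the Shh-MBs this pair stood at 1.22 ± 0.344 (SD, *n* = 3), since *Dtx4* was low there, and differed from both groups of eyes (-1.73 for *RBS* lesions minus Shh-MBs and 2.66 for Shh-MBs minus control eyes, exact permutation, adjusted *p* = 0.0429 for each). *Dtx1* minus *Dtx4* separated the Shh-MBs from both groups of eyes (-2.92 and 3.20, exact permutation, adjusted *p* = 0.0429 for each) but not the lesions from control eyes (0.29, adjusted *p* = 0.165). For the Fringe pair, *Lfng* minus *Mfng* had a mean of 4.28 ± 0.473 in the 5 lesions and 3.50 ± 0.21 in the 4 control eyes (SD). The difference of 0.78 missed the threshold after adjustment (exact permutation *p* = 0.0397, adjusted 0.0529), with every lesion above every control eye, and passed without any 1 of the lesions (adjusted *p* = 0.0381). Shh-MBs, at 3.99 ± 0.307 (SD, *n* = 3), were above control eyes by 0.49 (exact permutation, adjusted *p* = 0.0429, but 0.165 with a pseudocount of 5) and did not differ detectably from *RBS* lesions (0.29 for *RBS* lesions minus Shh-MBs, exact permutation, adjusted *p* = 0.339). After quantile normalization these values were -0.27 (exact permutation, adjusted *p* = 0.218), with the sign turned, and 1.02 (exact permutation, adjusted *p* = 0.0536). The place of the Shh-MBs in the Fringe pair thus depended on the scaling, whereas the calls of the 3 Deltex pairs were the same after quantile normalization.

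**Figure D4:**
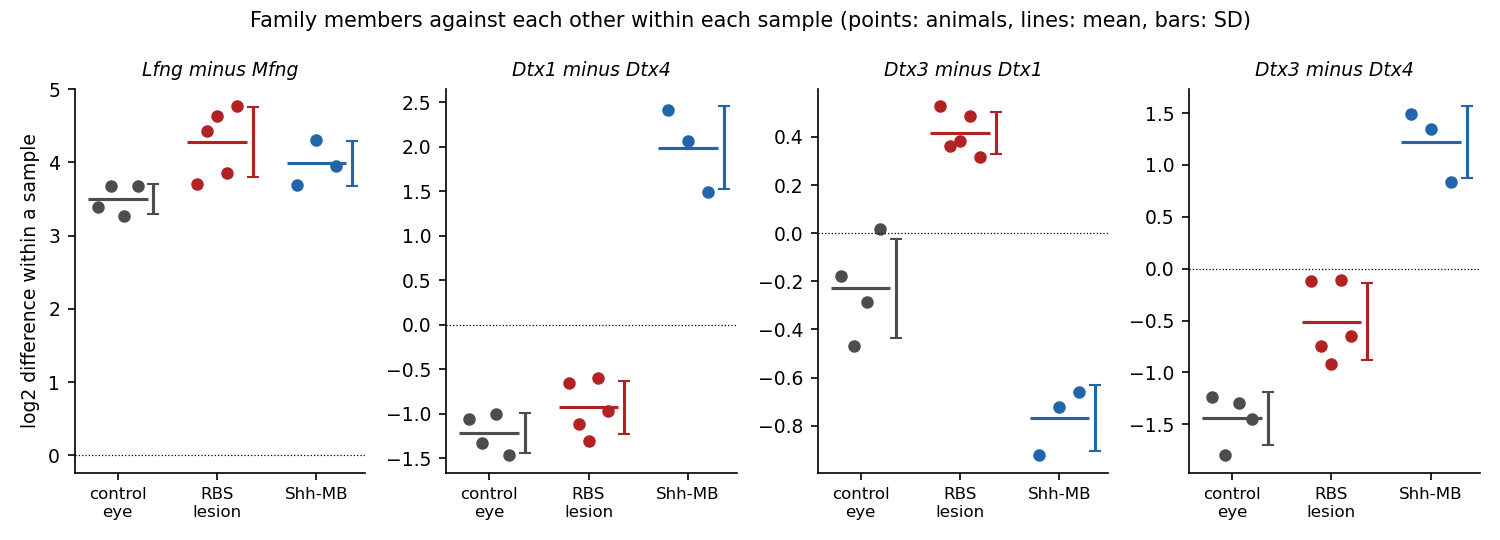
Log2 difference within each sample between 2 genes of a family, for control eyes (n = 4), *RBS* lesions (n = 5) and Shh-MBs (n = 3), with the group mean as a line and the SD as a bar. The 3 groups are separate for *Dtx3* minus *Dtx1*, and the Shh-MBs lie above both groups of eyes for *Dtx3* minus *Dtx4*. The place of the 0 line has no meaning of its own, as 2 different probes are compared.

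Members also differed in how they varied among the 5 lesions. *Lfng* and *Dtx4* had the same order of lesions, highest in *RBS* 3 and lowest in *RBS* 1, with *RBS* 4 next to lowest. *Dtx3* and *Numbl* had another common order, highest in *RBS* 4 and lowest in *RBS* 3, and *Dtx1* and *Maml2* also ran from *RBS* 4 down to *RBS* 3. The SD of the log2 values over the lesions was 0.30 for *Lfng*, 0.22 for the median gene of the panel and 0.08 for *Maml2*. *RBS* 1 and *RBS* 4 were the lesions with the fewest counts above background, 335349 and 447857 against 575461 to 638151 in the others. They had the highest summed signal of 5 lens and surface epithelium markers (2000 and 1805 against 1427 to 1782), but other marker lists parted them. The neuron sum was lowest in *RBS* 1 (3210) and highest in *RBS* 4 (4178). The mesenchyme sum was highest in *RBS* 1 (37038) and lowest in *RBS* 4 (20634). Blood and immune markers again ranked both highest (239 and 246). The part of depth and of tissue make-up in this pattern was not tested. Among control eyes, control eye 2 was the highest for *Lfng* and *Dtx4* and the lowest for *Dtx3* and *Numbl*, and had the most counts above background (716961). Among the tumors, Shh-MB 2 was lowest for *Lfng*, *Mfng*, *Dtx4* and *Maml2*, while *Dtx1*, *Dtx3* and *Numbl* ran from Shh-MB 1 down to Shh-MB 3.

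**Figure D5:**
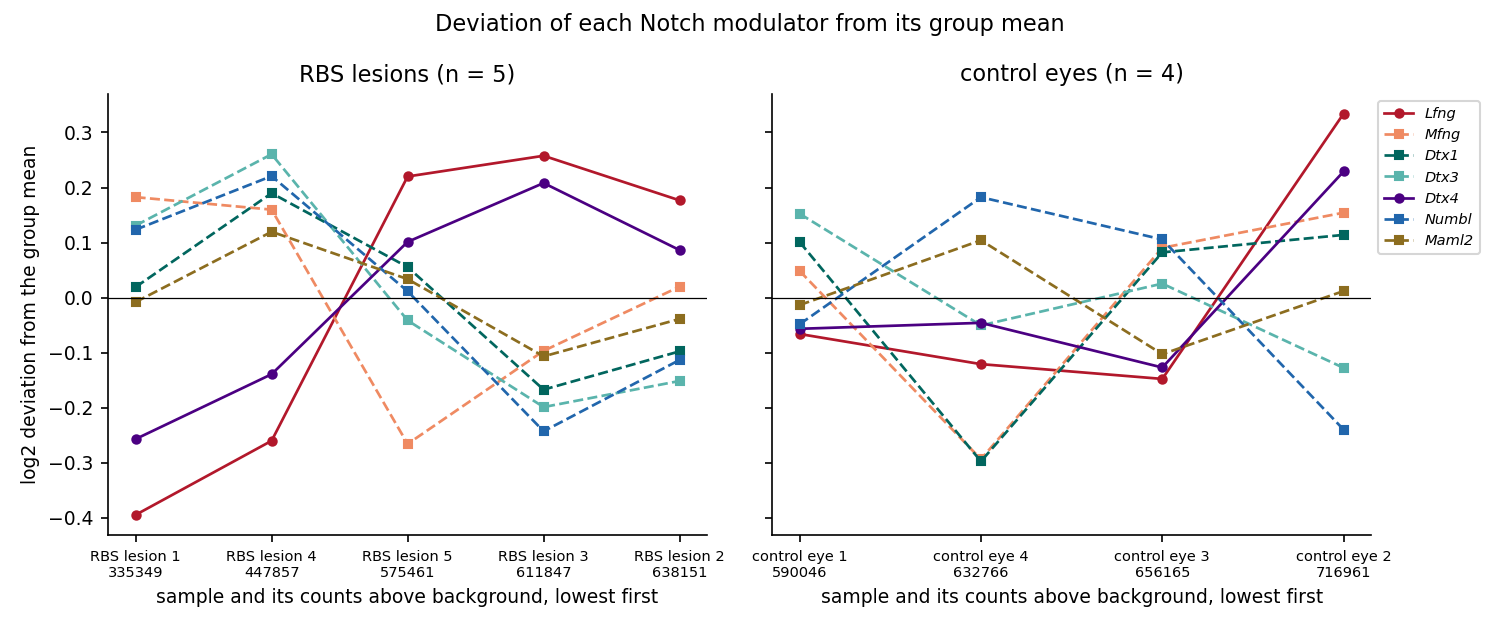
Deviation of each Notch modulator from its group mean (log2) in the 5 *RBS* lesions and the 4 control eyes, ordered by counts above background, with lines joining the values of a gene. *Lfng* and *Dtx4* (solid lines) are lowest in *RBS* 1 (-0.39 and -0.26) and next to lowest in *RBS* 4. *Dtx3*, *Dtx1*, *Numbl* and *Maml2* are highest in *RBS* 4. In *RBS* 1, *Dtx3* and *Numbl* are above their mean (0.13 and 0.12), and *Dtx1* and *Maml2* are near it.

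Marker genes of other cell types differed between the groups as well. Their counts are to be read beside all genes, of which 33.0% were higher and 18.2% lower in lesions than in control eyes. Against Shh-MBs the shares were 48.1% and 12.7%. Of 19 neuron markers written down, 8 were on the panel, and 7 of them were higher in lesions than in control eyes, with a summed signal between 3210 and 4178 in lesions and between 1064 and 1195 in control eyes. All 5 lens and surface epithelium markers on the panel were higher in the lesions, with sums of 1427 to 2000 against 768 to 1067. Of 12 proliferation markers 10 were lower (5559 to 6860 against 12248 to 15279), and 1 of 3 endothelial markers, the VEGF receptor gene *Kdr*, was lower (-1.49, adjusted *p* = 4.32e-05, limma). The 3 summed to 695 to 988 in lesions and 1789 to 2259 in control eyes, with a median log2 difference of 0.12. Of 9 mesenchyme markers 3 were lower and 1 was higher in lesions (20634 to 37038 against 25842 to 58216). In the Shh-MBs the mesenchyme markers summed to 1664 to 2324, the proliferation markers to 14148 to 15863, with 10 of 12 lower in lesions than in tumors, and the endothelial markers to 129 to 235, with 3 of 3 higher in lesions. There the lens and surface epithelium markers summed to 168 to 258, with *Calml3* and *Itga2* at the floor in all 3 tumors, and the neuron markers to 1264 to 1982. The part of these differences in those of *Lfng*, *Dtx3*, *Dtx4*, *Numbl* and *Maml2* was not tested.

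The rest of the pathway did not share one direction in the lesions. Of 22 other Notch genes on the panel, 8 were higher and 8 lower in lesions than in control eyes (72.7% past the threshold, median -0.03), beside 51.2% of all genes past it, 33.0% higher and 18.2% lower. Of 3 receptor genes 2 were higher and none was lower, and *Notch3* had the largest rise, 1.27 (adjusted *p* = 0.00148, limma). Of 5 genes listed as ligands 3 were lower and 1 was higher, with the largest fall for *Dll4*, a Delta ligand that is also typical of endothelium, at -1.29 (adjusted *p* = 0.000761, limma). Of 3 targets *Hes1* and *Hes5* were lower, and *Ptcra*, with a mean signal between 1.21 and 1.61 in the 3 groups, was too near the floor to be measured. Among 4 other modulators 2 were higher and 1 was lower, and the 1 gamma-secretase gene on the list was higher. With median centring 6 of the 22 were higher and 10 lower.

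Against Shh-MBs, 14 of the 22 were higher in *RBS* lesions and 1 was lower (68.2%, median 0.70), beside 60.8% of all genes past the threshold, 48.1% higher and 12.7% lower. *Notch3* and the Jagged ligand gene *Jag2* were near the floor in the tumors, with mean signals of 4.94 and 4.22 against 78.6 and 60.6 in the lesions, so no size is given for their differences. Apart from these, *Notch1* had the largest rise, 3.22 (adjusted *p* = 1.79e-06, limma), and the Delta-like gene *Dll3* was lower at -0.45 (adjusted *p* = 0.0362, limma). With median centring 8 were higher and 9 lower. In Shh-MBs against control eyes 13 of the 22 passed, all of them lower (59.1%, median -0.67), beside 41.0% of all genes past the threshold and 31.4% lower, with the largest fall for *Notch1* at -3.43 (adjusted *p* = 2.66e-05, limma), and with median centring 6 were higher and 9 lower.

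For each member the panel genes with the most similar profile were named by the root mean square difference of log2 values over the 12 samples, each gene centred on its mean over the 3 groups, among genes with a mean signal of at least 20. The samples share scaling and groups, so these distances are a description only. The closest pair was *Dtx3* and *Acvr1b*, which encodes an activin receptor, at 0.0611, with *Idh1*, an isocitrate dehydrogenase, second at 0.183. *Dtx4* was nearest to *Runx1t1*, a transcriptional corepressor, at 0.166 and to *Notch1* at 0.257, both of which were also far lower in the tumors. *Lfng* was nearest to the integrin gene *Itgb8* (0.224) and the Frizzled receptor gene *Fzd3* (0.266), and *Mfng* to the receptor gene *Tgfbr1* (0.272) and *Prkdc*, a DNA repair kinase (0.28). *Dtx1* was nearest to *Men1*, which encodes menin, and *Smarcb1*, a chromatin remodeling subunit (0.146 and 0.16), *Numbl* to the cullin ligase subunit *Rbx1* and the G protein subunit *Gna11* (0.138 and 0.14), and *Maml2* to the repair gene *Ercc4* and the BMP mediator *Smad1* (0.119 and 0.136). Within the 7 members, *Numbl* and *Maml2* were each other's nearest (0.27), and *Dtx4* was farthest from the rest, with *Mfng* as its nearest member at 0.875.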

How the data were processed

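RNA of fresh-frozen tissue from separate animals was measured on the mouse PanCancer pathways panel in 4 control eyes, 5 *RBS* lesions and 3 Shh-MBs. The *p*-values thus set differences between groups against the spread between animals. Litters are not given in the sources used here, so animals that share a litter could not be taken into account. The values that the authors deposited are a normalized signal on a linear scale, made in nSolver with its Advanced Analysis module. In the deposited table a background had been subtracted, genes without signal sat at a floor, and each sample carried 1 factor. The background setting and the reference genes are not given in the sources used here. Values were not whole counts, so no count model was used. Depth was estimated as the summed signal over the spacing of low values.

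Groups were compared in pairs with limma 3.58.1 (R 4.3.3) on log2(signal + 1) of all 770 genes without a filter, two-sided, with Benjamini-Hochberg adjustment and a threshold of 0.05. Pairs of relatives were compared with exact permutation tests in Python 3.11.15. The limma step was tested on simulated data. All 770 symbols matched RefSeq, 10 of them through a synonym. Alternatives were a pseudocount of 5, centring on sample medians, centring on 18 housekeeping genes, quantile normalization, the total signal less the top 3 genes, a floor or minimum mean of 20, limma with trend and robust settings, all 12 samples in 1 fit, a replicate block, exact permutation, the methods' t-test without its permutations, and leaving out each sample.

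The members, the Notch list (63 genes, 22 on the panel) and the marker lists were chosen with earlier results of these data known. The muscle list had 1 gene on the panel (3.4 to 23.4 in eyes, at the floor in all 3 Shh-MBs), 6 blood and immune genes summed to 97.1 to 153 in control eyes, 187 to 246 in lesions and 126 to 241 in tumors, and the glial list held only *Pdgfra*. Named were all members, the other Notch genes with the largest rise and fall past the threshold in each comparison, the 2 nearest profiles per member, and *Ctnnb1* and *Smo*. *Kdr*, *Calml3*, *Itga2*, *Hes1*, *Hes5*, *Ptcra* and *Jag2* were named after their values were seen. *Zic2*, *Ccnd2*, *Mycn* and *Gli1* were named as the genes of their marker list on the panel. Promoters came from RefSeq (GRCm38.p6). The human samples were not analysed here.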

Additional observations from a re-analysis of the deposited data

Results flagged for a closer look

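In 14 groups of values, those of the 7 members in control eyes and in *RBS* lesions, the highest and lowest sample were compared with the others. In 2 of them 1 sample stood apart. *Lfng* in control eye 2 was 1056, while the other 3 control eyes were between 756 and 799.6, so the gap took 0.853 of the whole range. *Dtx1* in control eye 4 was 344, while the others were between 448 and 457.5, a gap of 0.912 of the range. Chance alone marks about 1 in 20 such groups, and groups of 3 were not examined. Without control eye 2 the log2 difference of *Lfng* between *RBS* lesions and control eyes was 0.85 (adjusted *p* = 0.00488, limma), and without control eye 4 that of *Dtx1* was 0.074 (adjusted *p* = 0.599, limma), so neither call changed.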

How the results depend on the processing

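The rises of *Lfng*, *Dtx3*, *Numbl* and *Maml2* in *RBS* lesions over control eyes kept their direction under all 22 alternatives and the threshold under all but the methods' t-test with step-down Bonferroni adjustment, where only *Maml2* passed. That t-test was run without the permutations that the methods name, with *p* from the t distribution. *Dtx4* kept both in both comparisons with Shh-MBs. With that t-test and adjustment 1 member passed in each of the 3 comparisons, 0, 3 and 1 other Notch genes passed (*RBS* lesions against control eyes, against Shh-MBs, Shh-MBs against control eyes; with limma 16, 15 and 13), and 72, 80 and 36 of all genes. The same t-test after Benjamini-Hochberg called 4, 4 and 1 members and 347, 380 and 217 of all genes. It lost *Mfng* between *RBS* lesions and Shh-MBs (adjusted *p* = 0.0927), and only *Dtx4* passed in Shh-MBs against control eyes.

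Scaling turned signs. Between *RBS* lesions and control eyes, *Dtx1* was -0.0069 under median centring and -0.11 under quantile normalization. Against Shh-MBs, median centring gave -0.67 for *Dtx1*, -0.56 for *Numbl* and -0.21 for *Maml2*, quantile normalization -0.43 and -0.30 for *Dtx1* and *Numbl*, and the total signal less the top 3 genes -0.21 and -0.10. Between Shh-MBs and control eyes, *Dtx3* was 0.13 with median centring, and *Dtx1* was 0.67 with median centring, 0.025 with housekeeping genes, 0.32 with quantile normalization and 0.31 with the total. The cause was not tested. Leaving out 1 sample, *Mfng* between the groups of eyes ranged from -0.14 to 0.028, above 0 without *RBS* 5 (0.028) or control eye 2 (0.013), and *Dtx1* in Shh-MBs minus control eyes ranged from -0.23 (without Shh-MB 1) to 0.16, with 0.058 and 0.16 without Shh-MB 2 or 3 and 0.033, 0.037 and 0.027 without control eye 1, 2 or 3.

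Leaving out 1 sample at a time, 4, 5 to 6 and 2 to 4 members passed in the 3 comparisons, 14 to 16, 14 to 16 and 12 to 14 other Notch genes, and 350 to 392, 423 to 478 and 250 to 313 of all genes. The 2 members came without Shh-MB 2. In the order of the 3 comparisons, *Lfng* minus *Mfng* then lay between 0.66 and 0.92, 0.15 and 0.45, and 0.33 and 0.63, *Dtx1* minus *Dtx4* between 0.20 and 0.38, -3.16 and -2.71, and 2.99 and 3.45, *Dtx3* minus *Dtx1* between 0.56 and 0.73, 1.11 and 1.24, and -0.62 and -0.46, and *Dtx3* minus *Dtx4* between 0.81 and 1.03, -1.93 and -1.60, and 2.53 and 2.86. *Lfng* minus *Mfng* in Shh-MBs minus control eyes was 0.38 with a pseudocount of 5 (adjusted *p* = 0.165) and stayed 0.49 with a permuted Welch statistic (adjusted *p* = 0.103), with which the difference of 0.78 between *RBS* lesions and control eyes passed (adjusted *p* = 0.0357, exact permutation). Under 2 scalings added after seeing the data, quantile normalization turned *Lfng* minus *Mfng* in Shh-MBs minus control eyes to -0.27 (exact permutation, adjusted *p* = 0.218), and the other 11 differences kept direction and call, as did all 12 with the total signal less the top 3 genes.

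Replicate numbers did not pair the samples, as deviations of samples with the same number correlated between -0.148 and 0.188 across genes. With a replicate block 4, 5 and 2 members passed, with 301, 407 and 230 of all genes, and the sign of *Mfng* between the groups of eyes turned (0.028). Depth limits *Mfng* most, with 20 counts above background in Shh-MB 2. With 3 tumors and 4 control eyes the exact permutation *p* cannot go below 0.0286.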
